A study of Saccharomyces cerevisiae with 29 samples.

Results

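The annotation used with these yeast libraries lists 275 tRNA genes, taken here as every feature typed as tRNA, among 26240 features of all types. Each tRNA gene was grouped by the amino acid and the anticodon that its systematic name spells out. TD(GUC)B, for example, is an aspartate tRNA gene with anticodon GUC on chromosome II, the letter B standing for the chromosome. The systematic name gave an amino acid and anticodon for 274 genes, which fell into 41 anticodon families for 20 amino acids. The remaining gene, TX(XXX)D on chromosome IV, carries placeholder letters and a product listed as of other type. In all 274 named genes the product stated in the annotation was the amino acid of the name, and in all 275 the chromosome letter was that of the chromosome.

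tRNA genes of budding yeast are transcribed by RNA polymerase III from promoter elements that lie inside the gene, the A box and the B box, which TFIIIC binds before it places TFIIIB upstream of the start. Some precursors carry an intron just 3′ of the anticodon, which the tRNA splicing endonuclease removes. The Ty1, Ty2, Ty3 and Ty4 retrotransposons are known for inserting upstream of genes transcribed by RNA polymerase III. They leave behind solo long terminal repeats (LTRs), called delta for Ty1 and Ty2, sigma for Ty3 and tau for Ty4. All annotated LTRs were counted here, and solo ones were not told apart from those of elements that still hold retrotransposon genes.

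The study sequenced DNA ends made by alkaline hydrolysis at ribonucleotides in the genome (HydEn-seq), in 29 libraries of 14 strains of Saccharomyces cerevisiae grown to mid log phase in rich medium. The strains without RNH201, the catalytic subunit gene of RNase H2, were pol2-M644G rnh201-delta (4 libraries), pol1-Y869A rnh201-delta (3), pol3-L612G rnh201-delta (2), pol3-L612M rnh201-delta (2), pol2-M644L rnh201-delta (2), pol1-L868M rnh201-delta (1) and rnh201-delta alone (2). Those that keep RNH201 were pol2-M644G (3), pol1-Y869A (2), pol3-L612G (2), pol2-M644L (2), pol3-L612M (1), pol1-L868M (1) and WT (2). No end counts from any library entered this description, and every number below describes the 1 reference annotation that these strains share, called L03, and none belongs to a strain. The counts are complete counts of annotated features with no replicates, so they carry no error and no test was made on them. Positions are L03 (ref_v2) coordinates, counted from 1. All 275 tRNA genes were found by gene ID in the RefSeq R64 table, where each is also typed as tRNA, and that table holds 275 nuclear tRNA genes.

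Copy number was uneven across families. A family had a median of 6 genes, and the range ran up to 16. The 15 families with 10 or more genes held 181 tRNA genes, which is 65.8% of the 275. Asp-GUC and Gly-GCC were the largest, with 16 genes each. Glu-UUC, Lys-CUU and Val-AAC followed with 14 each, and Ile-AAU had 13. Ala-AGC, Arg-UCU, Ser-AGA and Thr-AGU had 11 each, while Asn-GUU, Leu-CAA, Met-CAU, Phe-GAA and Pro-UGG had 10 each. At the other end, 6 families had 1 gene and another 6 had 2.

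**Figure D1:**
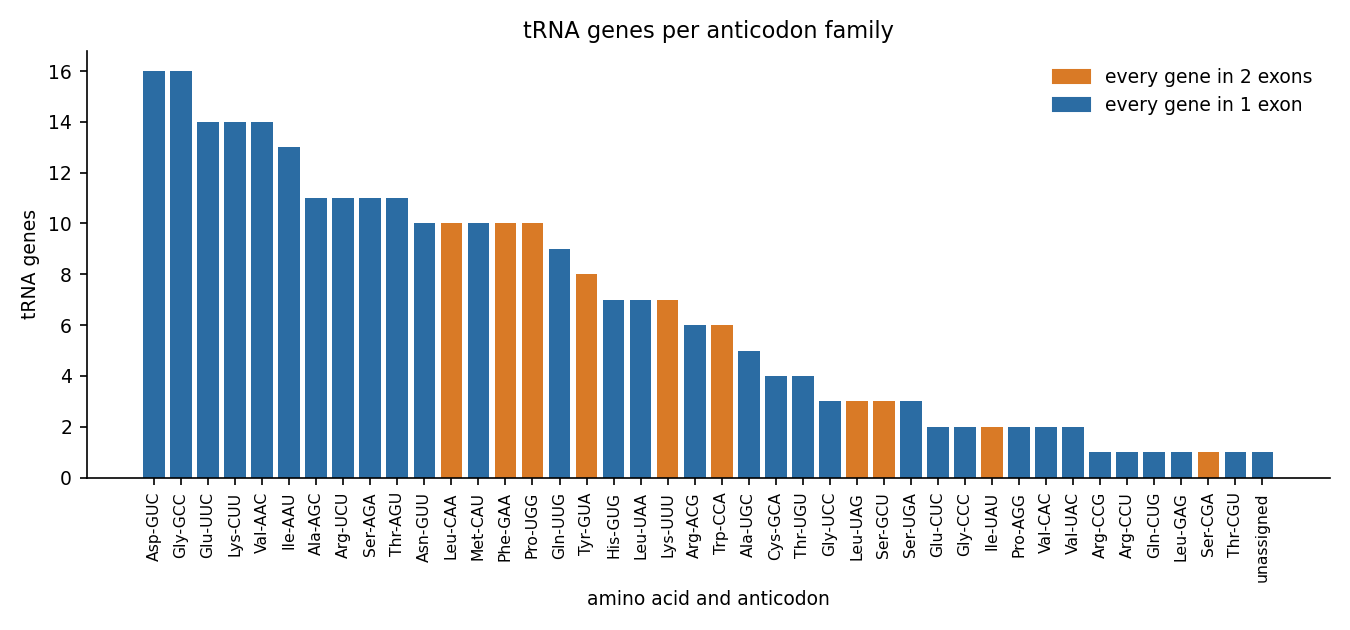
Number of tRNA genes (vertical axis) in each anticodon family (horizontal axis, largest first), with families whose genes have 2 exons in orange and those with 1 exon in blue. The 2 largest families reach 16 genes and 6 families stand at 1 gene, and orange families are found from 10 genes down to 1. The last bar, also at 1, is the unassigned gene TX(XXX)D, which is in no family.

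Summed by amino acid, leucine, glycine and lysine had the most genes, with 21 each, or 7.64% of all tRNA genes. Arginine had 19, and serine and valine had 18 each. Cysteine had the fewest, with 4, after tryptophan with 6, histidine with 7 and tyrosine with 8. Leucine, arginine and serine were spread over 4 families each, whereas 8 amino acids had a single family. Asparagine, aspartate, histidine, methionine, phenylalanine, tryptophan, tyrosine and cysteine were those 8.

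The first base of the anticodon, the wobble position, pairs with the third base of the codon. Genes with U there numbered 80 in 13 families, those with G 75 in 9 families, those with A 68 in 7 families and those with C 51 in 12 families. The 16 combinations of the other two anticodon bases each had a family with A or one with G at the wobble position, and none had both. A was used for alanine, arginine, isoleucine, proline, serine, threonine and valine, and G for the remaining 9 combinations. Glycine and the Leu-GAG family were thus the cases with G among the 4-codon boxes that belong wholly to 1 amino acid. In yeast, A at this position is deaminated to inosine in the mature tRNA, which lets it read codons ending in U and C. Of the 61 anticodons that could read a sense codon, 20 had no gene, and 16 of these were the A or G alternatives just described. The other 4 were 1 of the 14 anticodons starting in U, an arginine anticodon, and 3 of the 15 starting in C, for leucine, alanine and proline. No tRNA gene was annotated with an anticodon to any of the 3 stop codons.

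The annotation gives a gene symbol of its own to 45 tRNA genes, and exactly those 45 also carry its qualifier of experimental evidence. Of the symbols, 16 start with SUP, the name used for nonsense suppressors, and 14 with SUF, for frameshift suppressors. The 16 SUP genes lay in 5 families. All 8 genes of Tyr-GUA have a SUP symbol, among them SUP4, and so do 3 of 10 in Leu-CAA, all 3 in Ser-UGA, 1 of 7 in Leu-UAA and the only Ser-CGA gene. The 14 SUF genes lay in 5 families of glycine and proline. They make up all 3 genes of Gly-UCC, both of Gly-CCC, both of Pro-AGG, 4 of 10 in Pro-UGG and 3 of 16 in Gly-GCC.

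Met-CAU is the only family whose members the annotation divides by function. IMT1, IMT2, IMT3 and IMT4, the initiator tRNA genes, were each 72 bp long, and EMT1 to EMT5, the elongator genes, were each 73 bp long. The tenth gene, TM(CAU)C on chromosome III (bases 147164 to 147228, plus strand), has no symbol and was 65 bp long, the shortest of all 275. No base separates it from LTRs on either side: the 175 bp delta element YCRWDELTA8 ends at its 5′ end and the 22 bp tau element YCRCTAU1 begins at its 3′ end. The 10 Met-CAU genes were on 7 chromosomes, with 3 on chromosome X.

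Each of the 6 single-copy families was found on a different chromosome. Gln-CUG is represented by CDC65 (XIII, bases 808228 to 808299, minus strand), which had SCS7, a sphingolipid hydroxylase gene, 1305 bp upstream and URA10, an orotate phosphoribosyltransferase gene, 697 bp downstream. Arg-CCG is represented by TRR4 (XII, bases 818520 to 818591, plus strand), between GAS2, a cell wall glucanosyltransferase gene 847 bp upstream, and RPL26A, a ribosomal protein gene 631 bp downstream. Arg-CCU is represented by HSX1 (X, bases 538210 to 538281, plus strand), with YJR054W 1007 bp upstream and HIT1 144 bp downstream. All 3 had at least 1 LTR within 1 kb upstream.

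The other 3 single-copy genes had no LTR within 1 kb upstream. SUP61 (III, bases 223772 to 223872, plus strand), the Ser-CGA gene, lay 483 bp from YCR061W upstream and 275 bp from BUD31 downstream. TRT2 (XI, bases 46734 to 46805, minus strand), the Thr-CGU gene, lay between the divergent genes CBT1, 350 bp upstream, and STE6, 439 bp downstream, which encodes the exporter of a-factor. TL(GAG)G (VII, bases 700664 to 700745, plus strand), the Leu-GAG gene, had YGR106C 888 bp upstream and the B-type cyclin gene CLB1 2879 bp downstream, with a delta element 347 bp on the downstream side.

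Split exons followed the families without exception. Of the 275 tRNA genes, 60 (21.8%) were annotated in 2 exons and 215 in 1. The 60 belonged to 10 families, and in each of the 10 every gene was split. They were all 10 genes each of Leu-CAA, Phe-GAA and Pro-UGG, all 8 of Tyr-GUA, all 7 of Lys-UUU, all 6 of Trp-CCA, all 3 each of Leu-UAG and Ser-GCU, both of Ile-UAU and the only gene of Ser-CGA. Other families of the same amino acid were unsplit where these were split: Lys-CUU with 14 genes, Ile-AAU with 13, Ser-AGA with 11 and Leu-UAA with 7 had 1 exon throughout.

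The introns, measured as the bases between the 2 exons, ran from 14 to 60 bp with a median of 23 bp. Tyr-GUA had the shortest at 14 bp in all 8 genes, and Ile-UAU the longest at 60 bp in both. Lys-UUU had 23 bp and Trp-CCA 34 bp in every gene, and Leu-UAG and Ser-CGA had 19 bp. Small differences within a family occurred in 4 families. In Leu-CAA 8 genes had 32 bp and 2 had 33 bp, in Phe-GAA 7 had 19 bp and 3 had 18 bp, in Pro-UGG 7 had 31 bp, 2 had 30 bp and 1 had 33 bp, and in Ser-GCU 2 had 19 bp and 1 had 20 bp.

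The place of the split was nearly fixed. The first exon was 36 bp in 16 genes, 37 bp in 23, 38 bp in 13 and 39 bp in 8, and its length was the same in all genes of a family. The longest, 39 bp, was that of Tyr-GUA. The second exon was 36 bp in Ile-UAU, Lys-UUU, Phe-GAA, Pro-UGG, Trp-CCA and Tyr-GUA and 44 or 45 bp in the leucine and serine families. Without introns, the 39 leucine and serine tRNA genes were 81 to 84 bp long, and the other 235 genes with a known amino acid 65 to 75 bp, or 71 to 75 bp without TM(CAU)C. Leucine and serine tRNAs are known for a long variable arm. Exonic length was also constant within all but 3 families: 1 Asp-GUC gene, TD(GUC)N, had 71 bp against 72 bp in the other Asp-GUC genes, Ser-GCU had 81 or 82 bp, and Met-CAU varied as described.

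**Figure D2:**
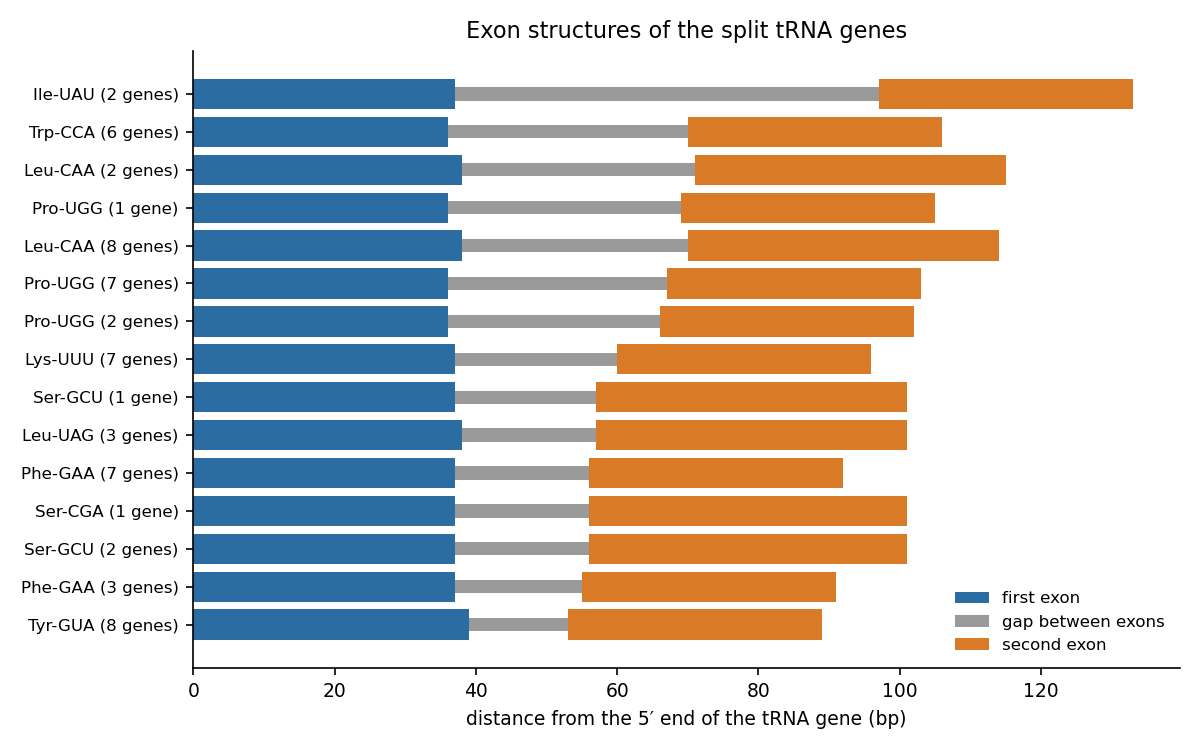
Exon structures of the 60 split tRNA genes, one row for each distinct structure with its family and number of genes, drawn to scale in bp from the 5′ end of the gene. First exons (blue) end at 36 to 39 bp in every row, while the gap between the exons (grey) runs from 14 bp in Tyr-GUA to 60 bp in Ile-UAU.

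tRNA genes were divided almost evenly between strands. On the plus strand there were 143 and on the minus strand 132, so that 52.0% were on the plus strand, beside 50.5% of the 5857 protein-coding genes. Single families were less even. Asn-GUU, Leu-CAA and Pro-UGG had 8 of 10 genes each on the plus strand, and Phe-GAA had 3 of 10. All 4 Thr-UGU genes were on the plus strand and all 4 Cys-GCA genes on the minus strand. The plus strand is a labelling convention of the map, and families this small were not tested.

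Every chromosome had tRNA genes. Chromosome VII had the most, with 36 genes of 20 families, and chromosome I the fewest, with 4 genes of 4 families. Per length, chromosome VI was the densest with 3.70 tRNA genes per 100 kb, followed by V with 3.47 and VII with 3.30. Chromosome II was the sparsest with 1.60 per 100 kb, although it had 13 genes. The whole of L03 had 2.28 per 100 kb. Chromosomes V, with 20 tRNA genes, and IX, with 10, held no split gene, whereas VI held 5 split genes among 10.

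**Figure D3:**
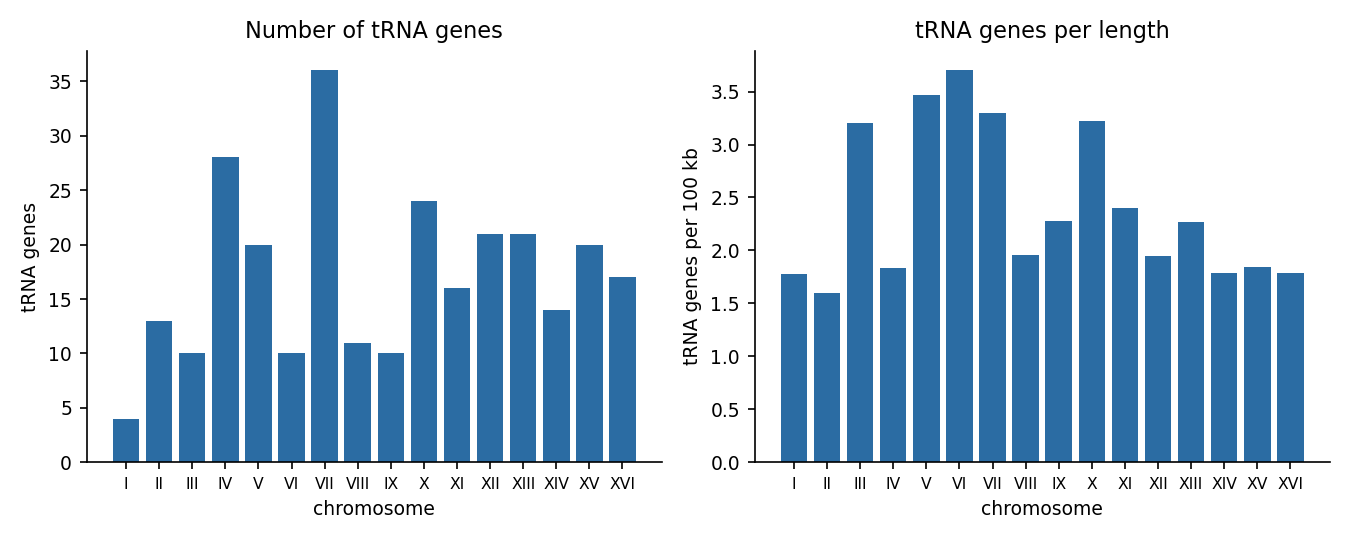
Number of tRNA genes on each of the 16 chromosomes (left) and the same number per 100 kb of chromosome length (right). Chromosome VII stands out by number with 36 genes, and chromosome VI by density with 3.70 genes per 100 kb.

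Families were scattered rather than held on 1 chromosome. The 16 Asp-GUC genes were on 10 chromosomes, with 4 on X, and the 16 Gly-GCC genes were on 10 with no more than 2 on any. Glu-UUC and Lys-CUU also reached 10 chromosomes. Arg-ACG had its 6 genes on 6 chromosomes and Ala-UGC its 5 on 5. Across all families there were 68 distances between neighbouring genes of the same family on 1 chromosome, with a median of 165 kb. The shortest was 11.2 kb, between TD(GUC)I1 and TD(GUC)I2 on chromosome IX.

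Neighbouring tRNA genes of any family were a median of 23.8 kb apart (quartiles 7.56 and 50.8 kb, over 259 distances). A neighbour within 2 kb was found for 37 tRNA genes, or 13.5%, in 19 pairs. Of the 5767 protein-coding genes that do not belong to retrotransposons, 10.1% had a tRNA gene within the same limit. None of the 19 pairs joined genes of the same family. Such pairs were rare among all 259 neighbouring pairs too, so their absence is not particular to close pairs. By strand, 8 pairs were convergent, 7 tandem and 4 divergent.

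The closest arrangement was the same one found 4 times. An Arg-UCU gene was followed on the same strand by an Asp-GUC gene after 10 bp, on chromosome II (TR(UCU)B with TD(GUC)B), on IV (TR(UCU)D with TD(GUC)D) and at 2 places on X (TR(UCU)J1 with TD(GUC)J2, and TR(UCU)J2 with TD(GUC)J3). The arginine gene came first in transcription in all 4. Such pairs are known in yeast to be transcribed as a dimeric precursor that is then cut into the 2 tRNAs. They accounted for 4 of the 11 Arg-UCU genes and 4 of the 16 Asp-GUC genes. Those on chromosome X faced each other, and 18.9 kb lay between the Arg-UCU genes. The next closest pair was TM(CAU)C and TK(CUU)C on chromosome III, 33 bp apart on opposite strands, then TI(AAU)B and TG(GCC)B on II at 61 bp.

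Long stretches held no tRNA gene. The 5 widest between neighbours were 276 kb on chromosome IV, between TG(GCC)D1 and TK(UUU)D, 270.0 kb on XIV, between TT(AGU)N1 and TF(GAA)N, 237 kb on II, between TD(GUC)B and TC(GCA)B, and 161 kb each on XIII, between TV(AAC)M3 and TR(UCU)M1, and on II, between TF(GAA)B and TI(AAU)B. Chromosome II, the sparsest, thus held 2 of the 5.

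tRNA genes were sparse near chromosome ends. Those within 25 kb of an end were 2, or 0.727%, namely TL(UAA)B1 at 9580 bp and TT(AGU)C at 21061 bp, beside 5.28% of protein-coding genes. No centromere had a tRNA gene within 2 kb. At 2.28 tRNA genes per 100 kb over L03, few fall in windows this short anywhere, and protein-coding genes near centromeres were not counted. The nearest tRNA gene was between 2.97 kb from the centromere, for SUF10 (TP(AGG)N) at CEN14, and 34.6 kb, for TD(GUC)G1 at CEN7, with a median of 11.8 kb over the 16 centromeres. TT(AGU)C lies 449 bp from the annotated HMR silent mating locus. It is known as the barrier that limits the spread of silent chromatin from HMR.

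LTRs lay mostly upstream of tRNA genes. Of the 275 tRNA genes, 175 (63.6%) had an LTR within 1 kb upstream and 15 (5.45%) within 1 kb downstream, with 11 in both sets. Among the 5767 protein-coding genes outside retrotransposons, the shares measured in the same way were 2.62% upstream and 2.77% downstream, so these genes showed no such difference between sides. Of the 15 with an LTR downstream, 8 also had another tRNA gene within 2 kb, beside 13.5% of all 275 tRNA genes. The same LTR can be downstream of a tRNA gene and upstream of its neighbour, as YGRWDELTA19 was for TL(GAG)G and TK(UUU)G2. Neither side had an LTR in 96 tRNA genes. Of the 381 annotated LTRs, 260 lay within 1 kb of a tRNA gene, 21 of them within 1 kb of more than 1. Some annotated LTRs lie inside another, as YJLCDELTA5 (332 bp) does in YJLCDELTA4 (667 bp), and each was counted.

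The 3 LTR classes lay at different distances. Sigma elements stood at an almost fixed position: of 38 pairs of a tRNA gene and an upstream sigma element, 34 had 14 to 18 bases between them, with 15 pairs at exactly 16. The other 4 pairs had 46, 47, 301 and 379 bp between them. The pair at 379 bp is a further sigma element behind one at 16 bp at TP(UGG)N1, and the pair at 301 bp, at TT(AGU)I2, is the element that stands 16 bp from TD(GUC)I1. Delta elements were a median of 187 bp upstream (quartiles 114 and 442 bp, 197 pairs), and 107 of the 197 were between 50 and 250 bp. Tau elements were a median of 229 bp upstream (quartiles 165 and 568 bp, 25 pairs). Only 1 delta element, at 14 bp from TK(CUU)C, and no tau element fell in the 14 to 18 bp range. None of the 8 omega elements, the LTRs of Ty5, was within 1 kb of a tRNA gene on either side.

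**Figure D4:**
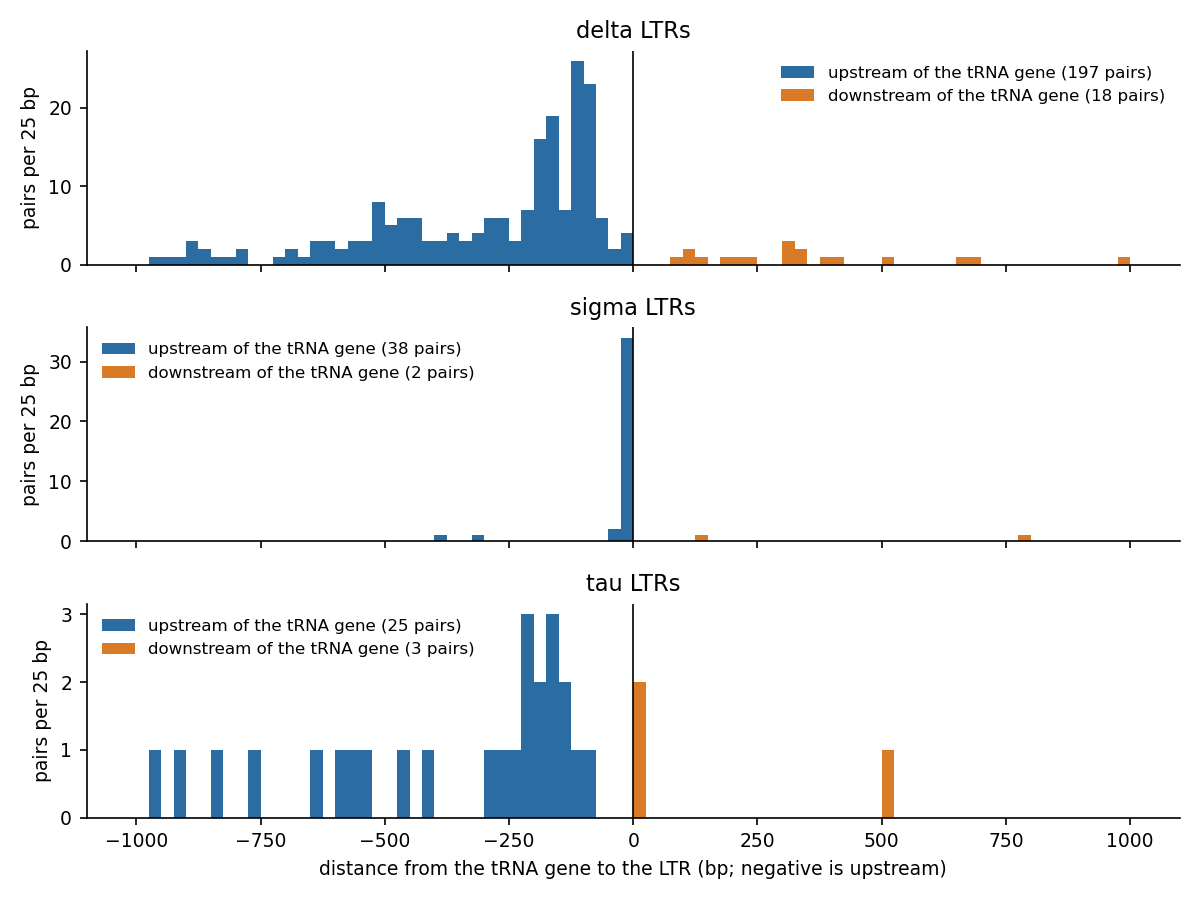
Distance between a tRNA gene and each LTR within 1 kb, in 25 bp bins, with upstream distances negative (blue) and downstream ones positive (orange), for delta, sigma and tau elements; overlaps are drawn at 0. Sigma elements form 1 narrow peak next to the tRNA gene, with 34 of 38 upstream pairs at 14 to 18 bp, while delta and tau elements spread over much of the 1 kb upstream.

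Most sigma elements were beside tRNA genes. Of the 42 annotated, 88.1% were within 1 kb upstream of a tRNA gene, beside 63.9% of the 296 delta and 68.6% of the 35 tau elements. The 37 tRNA genes with an upstream sigma element came from 23 families, led by Ala-AGC and Gly-GCC with 4 genes each and Ile-AAU with 3. In 36 of the 37 the sigma element was the nearest upstream LTR, and 22 of the 37 also had a delta element within 1 kb upstream. LTRs ran in either direction: sigma elements were on the strand of the tRNA gene in 13 pairs and on the opposite one in 25, delta elements in 86 and 111, and tau elements in 13 and 12. In 2 cases a delta element overlapped the 5′ end of the tRNA gene, by 14 bp at TG(GCC)C (SUF16) and by 7 bp at TD(GUC)N.

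An upstream LTR was found in 35 of the 41 families. Among families of 10 or more genes the share ran from 40.0% in Leu-CAA, with 4 of 10, to 90.0% in Pro-UGG, with 9 of 10. Thr-AGU had 9 of 11, Met-CAU 8 of 10, Glu-UUC 11 of 14 and Gly-GCC 11 of 16. In Pro-UGG the nearest upstream element was a delta at 75 to 474 bp in 8 genes and a sigma at 16 bp in TP(UGG)N1, and SUF11 had none. All 5 Ala-UGC and all 4 Cys-GCA genes had an upstream LTR. None was found for either Ile-UAU gene, for either Val-CAC gene, for the 3 Ser-UGA genes or for the single genes of Leu-GAG, Ser-CGA and Thr-CGU. Split tRNA genes had one in 32 of 60 (53.3%) and unsplit ones in 143 of 215 (66.5%). The difference was not tested. Splitting cannot be told apart from family membership here, since families were split in every gene or in none.

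The most LTRs within 1 kb of 1 tRNA gene was 4, found at 5 genes. TC(GCA)P1 (XVI) had 4 upstream, with delta elements at 103, 285 and 629 bp and a tau element at 925 bp, and its next upstream protein-coding gene, GRX5, was 8614 bp away, the farthest of any. TH(GUG)G2 (VII) had a sigma element at 18 bp and delta elements at 439 and 920 bp upstream, with a tau element 502 bp downstream. TW(CCA)P (XVI) had a sigma element at 15 bp and delta elements at 134 and 177 bp upstream, with a delta element 310 bp downstream. TK(CUU)E2 (V) had a delta at 121 bp and a tau at 454 bp upstream, and a delta at 304 bp and a sigma at 780 bp downstream. TL(UAA)D (IV) was the exception with more on its downstream side, 3 delta elements at 346, 650.0 and 979 bp against 1 at 95 bp upstream.

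Nearly all tRNA genes lay between protein-coding genes. Only 5 of the 275 overlapped one, and each of the 5 partners is a short reading frame described as a putative protein or known only from expression and homology searches. In 4 cases the strand was the same. TP(UGG)O1 and TT(UGU)P lay wholly inside YOL013W-A (192 bp) and YPR108W-A (213 bp). TP(UGG)N1 shared 84 of its 103 bp with YNL042W-B and SUF11 (TP(UGG)O2) 83 of its 102 bp with YOR072W-B. TG(GCC)P2 shared 37 of its 71 bp with YPR159C-A on the opposite strand. Thus 3 of the 5 were Pro-UGG genes.

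The 270 tRNA genes that overlapped no protein-coding gene lay in 253 gaps, 16 of which held more than 1. Divergent protein-coding genes flanked 95 (35.2%), tandem genes 128 (47.4%) and convergent genes 47 (17.4%). Of the 5762 gaps between neighbouring protein-coding genes, 26.1% were divergent, 48.0% tandem and 25.9% convergent. Counted by length instead, 34.0% of gap sequence was divergent, 50.1% tandem and 15.9% convergent, so the shares of tRNA genes lay near the shares of sequence. Gaps with a tRNA gene had a median length of 1376 bp, beside 358 bp for those without. The length includes the tRNA gene and any LTR in the gap, and the reason for the difference was not tested. Within families, His-GUG had none of 7 genes between divergent genes and Arg-UCU 1 of 11, whereas Tyr-GUA had 5 of 8 there and none between convergent genes.

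The nearest protein-coding gene was a median of 283.5 bp away, with quartiles of 185.2 and 490.5 bp, and 1827 bp away at most, for TL(UAA)N. The 2 sides differed. Downstream the median was 306 bp (quartiles 190.2 and 546.8 bp), and upstream it was 921.5 bp (quartiles 525 and 1497.5 bp). The downstream gene was the nearer one at 220 of the 270 tRNA genes, or 81.5%. The downstream median was the shorter one in all 15 families of 10 or more genes and in 22 of the 23 families with 5 or more. Trp-CCA was the exception, with 1087.5 bp downstream and 1045.5 bp upstream over its 6 genes. Lys-UUU had the widest contrast among these families, with 219 bp downstream and 2297 bp upstream.

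Upstream distances were also compared between tRNA genes with and without an upstream LTR. An LTR that lies before the next protein-coding gene takes up part of the distance measured. The grouping therefore lengthens the upstream distance in part by construction. The 173 tRNA genes with an upstream LTR had a median of 1159 bp to the next protein-coding gene upstream, and the 97 without had 626 bp. Downstream the medians were 308 bp for tRNA genes with an upstream LTR and 305 bp for those without. The downstream gene was the nearer one at 85.0% of the tRNA genes with an upstream LTR and at 75.3% of those without. The part of LTRs in the difference between the sides was not tested. The next gene belonged to a retrotransposon upstream of 37 tRNA genes and downstream of 2. With the 90 retrotransposon genes left out, the upstream median was 1165.5 bp and the downstream median stayed at 306 bp.

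**Figure D5:**
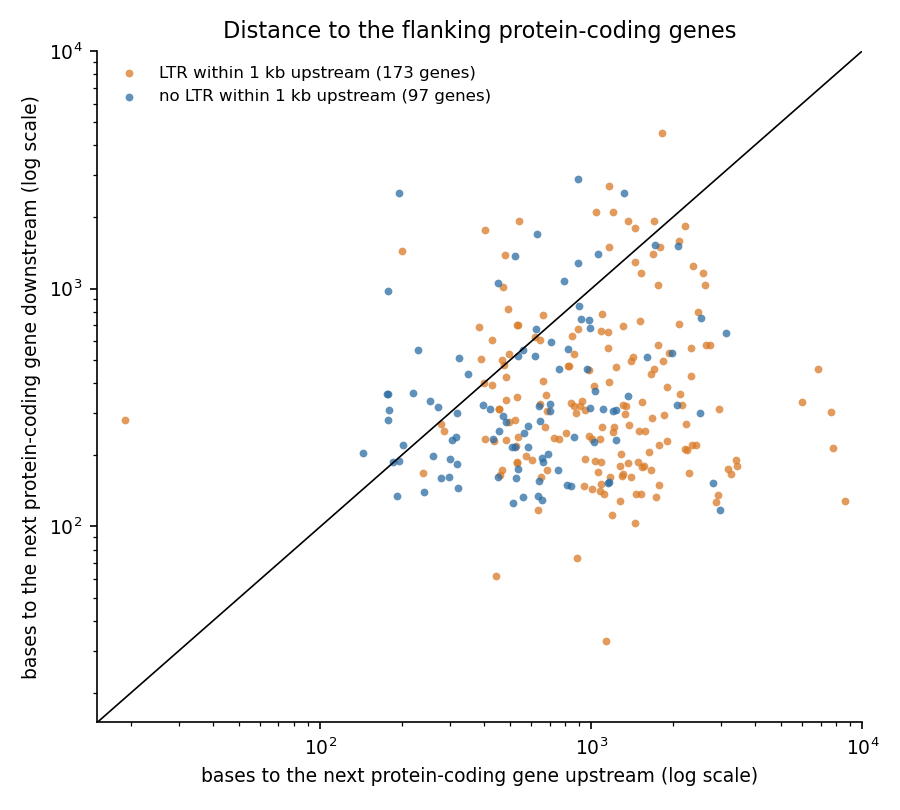
Bases from a tRNA gene to the next protein-coding gene upstream (horizontal axis) and downstream (vertical axis), both on log scales, for 173 tRNA genes with an LTR within 1 kb upstream (orange) and 97 without (blue); the line marks equal distances. Of the 270 points, 220 lie below the line, where the downstream gene is nearer.

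The downstream neighbour was on the strand of the tRNA gene for 161 of the 270 tRNA genes (59.6%), and the upstream neighbour for 113 (41.9%). These shares lay near those of gap sequence as a whole, where, counted by length over both strands, 59.1% had its downstream gene and 40.9% its upstream gene on the same strand. The shortest distances were at TT(AGU)I2 (IX), 19 bp from YIL014C-A upstream, and at TF(GAA)H2 (VIII), 33 bp from the meiotic regulator gene NDT80 downstream. SUP53 (III) lay 62 bp from LEU2 downstream, of which L03 holds only a remnant of 58 bp.

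SUP53 (TL(CAA)C, bases 90740 to 90853, plus strand) was the only tRNA gene within 2 kb of LEU2, AGP1, the URA3 insert, POL1, POL2, POL3 or RNH201. Among the other loci looked up, STE6 had TRT2 at 439 bp and HMR had TT(AGU)C at 449 bp, as given above. LEU2, which encodes isopropylmalate dehydrogenase, is annotated in L03 as a remnant of 58 bp. A region labelled as the site of a KanMX insertion begins inside SUP53 and shares 62 bp with it, made up of 18 bp of the intron and all 44 bp of the second exon. Whether any of the 14 strains carries that insertion is not stated in the annotation or the labels. The URA3 insert on chromosome III was 5.02 kb from its nearest tRNA gene, TE(UUC)C, and AGP1 4.54 kb from the same gene. POL1 was 8.51 kb from TL(CAA)N, RNH201 27.9 kb from TD(GUC)N, POL2 43.3 kb from TT(AGU)N1 and POL3 79.4 kb from TK(UUU)D. RNH202 was 2.09 kb from TE(CUC)D, and the ura3 deletion on chromosome V 14.0 kb from TQ(UUG)E2.

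An annotated replication origin lay within 1 kb of 29 tRNA genes, or 10.5%, from 16 families. The share among protein-coding genes outside retrotransposons was 8.48%, close to that of tRNA genes. The origin was on the upstream side in 16 cases and on the downstream side in 13. Asp-GUC, Ile-AAU and Thr-AGU had 4 genes each near an origin and Pro-UGG 3. Among families of 10 or more genes, Glu-UUC and Lys-CUU with 14 each had none. Nor had Asn-GUU, Met-CAU and Phe-GAA with 10 each, and several smaller families also had none. In 4 cases the origin feature overlapped the tRNA gene: ARS1008 at TD(GUC)J1, ARS1308 at TG(GCC)M, ARS912 at TT(AGU)I1 and ARS1509 at TT(AGU)O1. SUP11, a Tyr-GUA gene, lay 88 bp from ARS606. Counted from midpoint to midpoint, 48 tRNA genes had an origin within 2 kb. Of all tRNA genes, 154 (56.0%) were transcribed away from the nearest origin, and families of 10 or more genes ran from Asp-GUC with 12 of 16 down to Ile-AAU with 3 of 13. The share transcribed away from the nearest origin was not measured for protein-coding genes, so it cannot be called particular to tRNA genes. Differences between families were not tested.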

How the data were processed

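HydEn-seq libraries of 14 strains were grouped by strain label, and cutadapt 1.2.1 and Bowtie 0.12.8 are named in the submitters' processing notes. The 1 file used was the L03 annotation, which the authors derived from S288C version R64-1-1, per the file headers. The transfer of features onto L03 is not described in those headers. Its deposited values are positions in bp, with an empty score column and no read depth.

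tRNA genes were the features typed as tRNA. Anticodons came from the Name attribute, or from the locus tag where the Name is a symbol. Exons were matched to genes by coordinates. Protein-coding genes were those with an mRNA, less dubious ones, and 90 retrotransposon genes, told by their product, were left out where stated. Distances are bases between feature ends, and upstream means 5′ of the tRNA gene. The limits were 2 kb between tRNA genes and 1 kb for LTRs and origins.

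Genes were named by a fixed rule: families with 10 or more genes, single-copy and split families, the 5 closest pairs and 5 widest stretches. It also covered the 5 genes with most LTRs, overlaps, extreme chromosomes, genes within 2 kb of altered loci or centromeres, and methionine genes. The rule listed genes within 2 kb of origin midpoints as well, but those 48 were counted and not all named. Others were chosen after their values were seen. The members, lists and limits were chosen with earlier results of these data known. Coordinates of the R64 table were not used.

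The LTR measure was tested on simulated data, with 1 element planted beside each of the 275 tRNA genes, and recovered 275. Shares and medians under an alternative were set against a 95% interval of the original value, and counts against a factor of 1.5. The interval served only as a yardstick for change, since complete counts have no sampling error. The scripts ran under Python 3.11.15, with pandas 2.3.3, numpy 2.4.6, scipy 1.17.1 and matplotlib 3.10.9.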

Additional observations from a re-analysis of the deposited data

How the results depend on the processing

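Of 22 values under alternative settings, 16 stayed near the original value. Within 1 kb, 20 tRNA genes had another tRNA gene, and within 5 kb 80, against 37 within 2 kb. With only the protein-coding genes whose annotation carries experimental evidence, 0 tRNA genes overlapped one, against 5, and the median distance to the nearest was 323 bp, against 283.5 bp. Without retrotransposon genes, an alternative chosen after seeing the data, the upstream median was 1165.5 bp, against 921.5 bp. An origin lay within 2 kb of 51 tRNA genes, against 29 within 1 kb. The counts with an LTR upstream were 168 and 177 at limits of 0.5 and 2 kb, against 175, and downstream 14 and 21, against 15. The split genes, the plus-strand share and the shares between convergent, divergent and tandem genes also stayed near their original values in each alternative run. A planned comparison of tRNA gene number with amino acid use and a planned search for the A box were not run, since no protein or tRNA sequence was used here. No paired analysis was possible because every result comes from 1 annotation shared by all strains. The annotation fixes what can be counted: a feature it does not list counts as absent, and neighbouring features are not independent.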
